A study of Homo sapiens with 6 samples.

Results

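The kinesin motor family was followed by RNA sequencing of 6 libraries from A549, a line derived from a human lung adenocarcinoma. Its members were all protein-coding genes of the deposited table whose symbol is KIF or KIFC followed by a number, with or without a letter from A to C, which gave 42 of the 58735 genes. By textbook role 14 of them were placed in a mitotic class, 15 in a cargo transport class and 13 in a class of cilium function and microtubule regulation. The classes were set by hand with earlier results of these data known, so counts per class are description alone. KIF2A, which also acts at spindle poles, was placed in the third class. The libraries formed 2 groups of 3. The first group, PQ, was given paraquat, a herbicide that produces superoxide by redox cycling, and the second, PQ+SS-31, was given paraquat with SS-31, a peptide that reaches mitochondria and binds cardiolipin. Both groups are labelled 48 h, so paraquat exposure is shared by every library, and untreated cells were not analysed here. Doses are not given in the sources used here, and no label states whether each replicate was its own culture, so the p-values reflect the spread among these libraries alone and that spread may be technical.

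Kinesins convert ATP hydrolysis into movement along microtubules or into loss of tubulin from microtubule ends. Mitotic kinesins build the spindle, move chromosomes and complete cytokinesis, and their transcripts accumulate in the late cell cycle and fall when cells leave it. Transport kinesins carry mitochondria, lysosomes, endosomes and vesicles and are used by dividing and resting cells alike. The remaining members act in cilia, shape microtubule dynamics or have lost motor activity.

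Total counts ran from 16332061 to 17576827 per library. Of the labelled cell type's markers, KRT8, KRT18, KRT7 and ALDH1A1 were abundant, and EPCAM had 66 counts over all libraries. The alveolar type 2 genes SFTPC, SFTPB and NKX2-1 had 2, 14 and 0 counts, while LAMP3 had 397 and ABCA3 had 11465. CDKN2A, which is deleted in A549, had 0 counts. Markers of immune and endothelial cells (PTPRC, CD68, CD3E, PECAM1 and VWF) had 0 to 23 counts in total. Among fibroblast markers COL1A2 and DCN had 2 and 12 counts, and COL1A1 averaged 12.1 CPM with PQ and 13.5 CPM with PQ+SS-31 (counts scaled to library size with TMM factors). Principal component 1 held 39.4% of the variance and separated libraries inside each group. PQ replicate 3 lay farthest on the side that also held PQ+SS-31 replicates 1 and 3. Principal component 2, with 23.5%, set the groups apart, at 13.2 to 22.6 with PQ and -21.3 to -10.3 with PQ+SS-31.

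The filter on low counts kept 37 of the 42 kinesins for testing, namely 12 mitotic, 15 transport and 10 of the third class. Of the 5 others, KIF2B, a microtubule depolymerase of mitosis, and KIF19, which limits cilium length, had 0 counts in every library. In the shallowest library, PQ replicate 3, 3 counts would be 0.184 CPM by total count alone and 0.174 CPM with the TMM factor. KIF25 had 9 counts over all libraries and KIF6, a kinesin of motile cilia, had 16. KIF4B, a retrocopy of KIF4A with 95.3% identity over 4359 aligned transcript bases, had 25. Reads of the latter pair can be split or lost between the copies, so both values are uncertain.

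Mitotic members were the higher ones with SS-31, and the transport members centred near no change; the difference between the classes was not itself tested. All 12 tested mitotic kinesins had higher mean levels with SS-31, by 1.205-fold to 1.77-fold, with a median log2 fold change of 0.46. In bulk RNA, more cells in mitosis and more of these transcripts per cell cannot be told apart. The 15 transport kinesins had a median of -0.04, with 4 members above 0 and 11 below, and the 10 of the third class a median of 0.01, with 5 above and 5 below. Over all 15550 tested genes the median was 0.00, and 50.1% of genes had a positive and 49.9% a negative value. Single genes were tested with edgeR's quasi-likelihood test and Benjamini-Hochberg adjustment over all tested genes, at a threshold of 0.05. Of the 37 kinesins 1 was called higher, KIF20A, where 0.129% of all tested genes were called higher, and 0 were called lower, where 0.463% were. At an unadjusted p of 0.05, 11 of the 12 mitotic kinesins were higher against 5.62% of all genes, while 0 transport kinesins passed in either direction by this measure, by edgeR's or DESeq2's adjusted p or by that of limma-voom. In the third class 1 was lower at that level, against 5.94%.

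**Figure D1:**
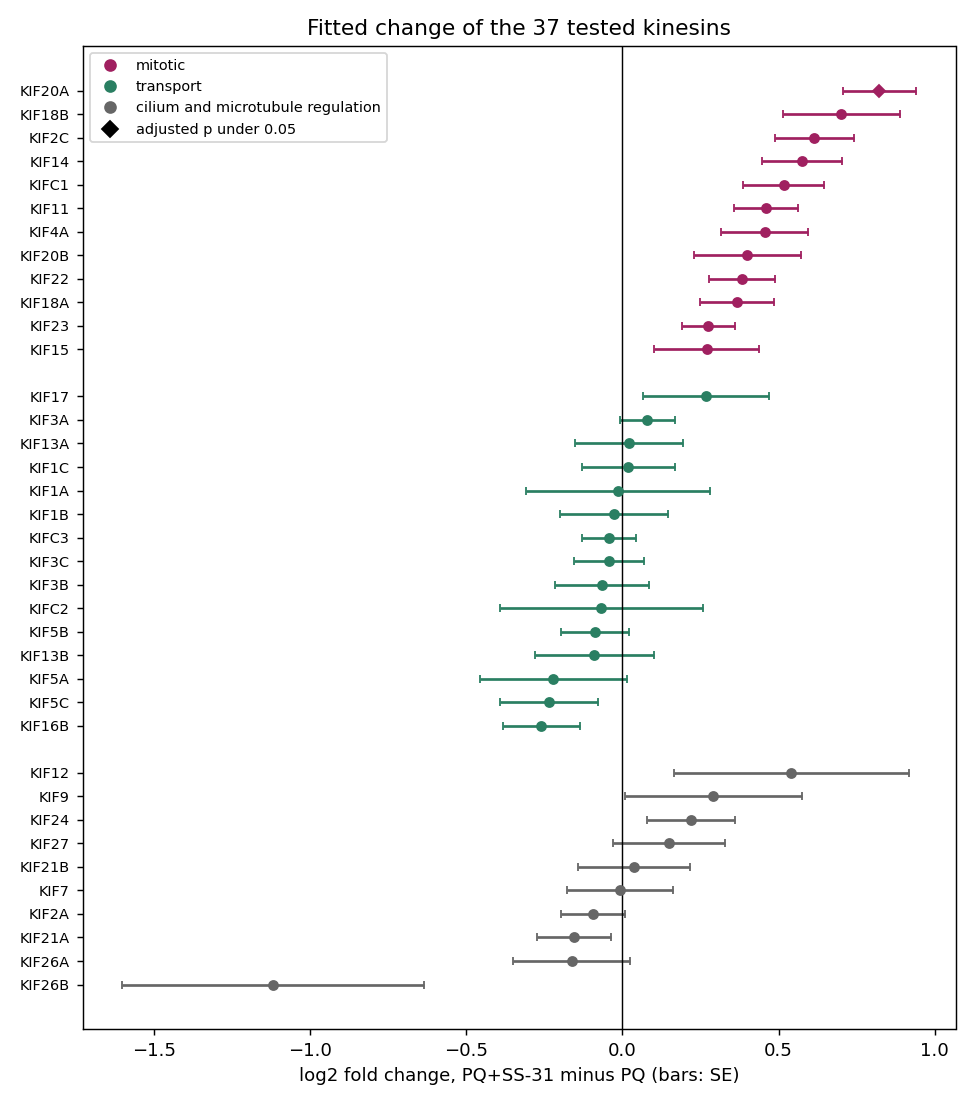
Fitted log2 fold change of PQ+SS-31 minus PQ for the 37 tested kinesins, grouped by class and ordered by value, with bars of 1 SE and a diamond for the gene past the adjusted threshold. The 12 mitotic kinesins lie at 0.27 to 0.82, and the 15 transport kinesins at -0.26 to 0.27.

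Late cell cycle genes often carry a cell cycle homology region in the promoter, whose core letters are TTTGAA or TTTAAA, bound by the MuvB complex, and nearby CCAAT boxes bound by NF-Y. These letters were searched on both strands in RefSeq promoters (GRCh38.p14), from 250 bases before to 50 after each start, and a gene was counted if any of its windows held a match. The table held windows for 34 of the 42 kinesins. TTTGAA or TTTAAA was found in 12 of 14 mitotic kinesins (85.7%), 2 of 11 transport kinesins (18.2%) and 0 of 9 of the third class, against 27.9% of all 27305 genes in the table. A CCAAT match was found in 11 of 14 mitotic kinesins (78.6%) and 4 of 11 transport kinesins (36.4%), against 39.7% of all genes. Both kinds of letters stood together in 10 of 14 mitotic and 1 of 11 transport kinesins, against 11.2% of all genes. A match describes the letters in the window and is not a measured binding site. KIF22 and KIF2B were the mitotic members with no TTTGAA or TTTAAA in the window.

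The 100 bases before the RefSeq start are shown for the 5 mitotic kinesins that hold both kinds of letters in this stretch, KIF20A first as the called gene, and for the transport kinesins KIF3B and KIF1C as contrast. Capitals mark the TTTGAA or TTTAAA letters and the CCAAT box. On the opposite strand the first appears as TTCAAA. The CCAAT box on that strand is written ATTGG.
KIF20A (chr5:138179012-138179111, plus strand): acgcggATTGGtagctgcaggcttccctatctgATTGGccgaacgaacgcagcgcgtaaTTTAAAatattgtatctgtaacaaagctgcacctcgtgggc
KIF11 (chr10:92593030-92593129, plus strand): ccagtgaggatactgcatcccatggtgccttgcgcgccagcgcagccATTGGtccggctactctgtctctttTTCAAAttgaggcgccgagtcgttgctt
KIF23 (chr15:69414249-69414348, plus strand): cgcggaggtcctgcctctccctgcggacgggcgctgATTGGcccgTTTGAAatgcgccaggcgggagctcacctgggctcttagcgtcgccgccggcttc
KIF4A (chrX:70290004-70290103, plus strand): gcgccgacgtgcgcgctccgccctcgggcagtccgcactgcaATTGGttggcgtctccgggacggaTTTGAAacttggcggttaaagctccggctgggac
KIF18A (chr11:28108157-28108256, minus strand): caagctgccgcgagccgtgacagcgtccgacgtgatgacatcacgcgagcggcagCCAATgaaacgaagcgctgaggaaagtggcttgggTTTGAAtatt
KIF3B (chr20:32277551-32277650, plus strand): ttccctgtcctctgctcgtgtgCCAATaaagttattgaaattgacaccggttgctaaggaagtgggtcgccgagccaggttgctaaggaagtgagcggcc
KIF1C (chr17:4997850-4997949, plus strand): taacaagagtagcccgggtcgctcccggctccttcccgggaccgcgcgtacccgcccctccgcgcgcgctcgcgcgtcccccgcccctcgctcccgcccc
In KIF20A, TTTAAA begins 41 bases before the start, behind a pair of ATTGG matches. The RefSeq starts used for KIF20A, KIF23, KIF4A, KIF18A and KIF1C lie downstream of the first base of the gene in the deposited table. Those of KIF11 and KIF3B lie upstream of it. The matches of KIF11, KIF23, KIF4A and KIF18A begin 28, 55, 34 and 10 bases before the start, with a CCAAT or ATTGG farther upstream. KIF15 and KIF2C, not shown, have matches that begin 35 and 3 bases before the start and no CCAAT in the window. In KIF3B a CCAAT stands alone, and KIF1C has none of the letters in this stretch. KIF5B is the transport kinesin with TTTGAA, 140 bases before the start, and KIF16B has TTTAAA 241 bases before.

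Among the motors of cytokinesis and the spindle midzone, KIF20A had the largest fitted increase of the 37 tested kinesins. KIF20A (MKLP2, chromosome 5, 138178719 to 138187715, GRCh38) carries the chromosomal passenger complex to the midzone. Its level was 10.4, 12.3 and 11.6 CPM with PQ and 20.1, 19.5 and 21.1 CPM with PQ+SS-31, here and below in the order of replicates 1, 2 and 3. The groups did not overlap, and the lowest SS-31 library lay well above the highest PQ library. KIF20A rose from 11.4 ± 0.986 to 20.2 ± 0.775 CPM (SD, n = 3), which is 1.77-fold, with a log2 fold change of 0.82 ± 0.12 (SE) and an edgeR adjusted p of 0.0276.

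The other midzone and cytokinesis motors had smaller fitted changes. KIF14 (chromosome 1, 200551497 to 200620734), which recruits citron kinase to the midbody, was at 26.0, 27.1 and 20.5 CPM with PQ and at 33.5, 40.1 and 36.0 CPM with PQ+SS-31. KIF4A, a chromokinesin that limits midzone microtubule growth with PRC1, was at 29.8, 30.4 and 22.4 CPM with PQ and at 32.8, 39.8 and 40.7 CPM with PQ+SS-31. KIF23 (MKLP1), the motor of centralspindlin, was at 55.1, 57.8 and 61.4 CPM with PQ and at 68.7, 73.7 and 68.6 CPM with PQ+SS-31. In these 3 genes every SS-31 library exceeded every PQ library, with PQ replicate 3 lowest for KIF14 and KIF4A and highest of its group for KIF23. KIF20B (MPP1), a kinesin of late cytokinesis, was at 40.2, 54.1 and 34.4 CPM with PQ and at 48.6, 65.1 and 55.9 CPM with PQ+SS-31, so its groups overlapped. The log2 fold changes were 0.57 ± 0.13 for KIF14, 0.46 ± 0.14 for KIF4A, 0.28 ± 0.08 for KIF23 and 0.40 ± 0.17 for KIF20B (SE), with edgeR adjusted p of 0.111, 0.236, 0.236 and 0.416. KIF20A, KIF20B and KIF23 belong to the same kinesin family, and the differences between their fold changes were not tested.

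Motors that set up the bipolar spindle formed a second group of roles. KIF11 (Eg5, chromosome 10, 92593286 to 92655395), the tetramer that slides antiparallel microtubules apart, was at 36.0, 40.2 and 36.3 CPM with PQ and at 45.5, 54.9 and 54.3 CPM with PQ+SS-31. KIFC1 (HSET), a minus-end motor that focuses spindle poles, was at 9.79, 11.6 and 10.99 CPM with PQ and at 16.8, 14.2 and 15.3 CPM with PQ+SS-31. Neither gene's groups overlapped, but neither passed the adjusted threshold. KIF15, which shares the maintenance of bipolarity with KIF11, was at 9.02, 9.93 and 7.04 CPM with PQ and at 9.60, 11.8 and 9.95 CPM with PQ+SS-31. It was the mitotic kinesin with the fewest counts among those tested, 965 in all, and its groups overlapped. The log2 fold changes were 0.46 ± 0.10 for KIF11, 0.52 ± 0.13 for KIFC1 and 0.27 ± 0.17 for KIF15 (SE), with edgeR adjusted p of 0.114, 0.144 and 0.607.

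Motors that act on chromosomes and on microtubule ends completed the mitotic class. KIF2C (MCAK, chromosome 1, 44739818 to 44767767), the centromeric depolymerase, was at 13.3, 13.7 and 11.5 CPM with PQ and at 18.1, 21.5 and 19.4 CPM with PQ+SS-31. KIF18B (chromosome 17, 44924709 to 44947711), which trims astral microtubules together with KIF2C, was at 14.5, 13.1 and 18.3 CPM with PQ and at 28.4, 18.7 and 27.7 CPM with PQ+SS-31. The SS-31 libraries of KIF18B were uneven, and its replicate 2 lay just above the highest PQ library. KIF18A, which damps chromosome movement, was at 20.9, 23.1 and 18.5 CPM with PQ and at 24.8, 26.8 and 28.99 CPM with PQ+SS-31. KIF22 (Kid), a chromokinesin that pushes chromosome arms from the poles, was at 32.2, 26.2 and 28.3 CPM with PQ and at 36.1, 36.6 and 40.2 CPM with PQ+SS-31. All 4 genes had groups that did not overlap. Exons of other genes cover more than 10% of the exonic bases of KIF22, and likewise of KIFC1, so part of their counts may belong to those genes. The log2 fold changes were 0.61 ± 0.13 for KIF2C, 0.70 ± 0.19 for KIF18B, 0.37 ± 0.12 for KIF18A and 0.38 ± 0.11 for KIF22 (SE), with edgeR adjusted p of 0.0868, 0.169, 0.262 and 0.191.

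**Figure D2:**
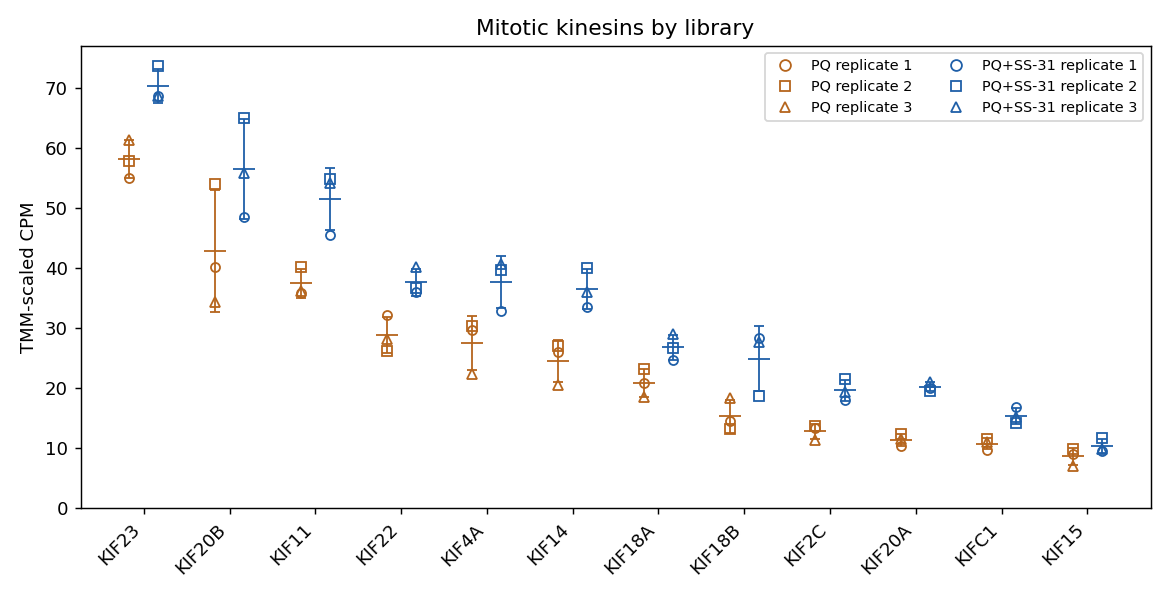
TMM-scaled CPM of the 12 tested mitotic kinesins in each library, with PQ in brown, PQ+SS-31 in blue, a marker shape per replicate number, and a bar for the mean with error bars of 1 SD (n = 3). The groups are apart in 10 of the 12 genes and overlap in KIF20B and KIF15.

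Taking the mitotic class by library, groups that did not overlap, with SS-31 higher, were seen in 10 of its 12 tested members, against 9.16% of all tested genes. In no kinesin were the groups apart with SS-31 lower, which was seen in 8.86% of all tested genes. No PQ library was the highest for any of the 12, and no SS-31 library was the lowest. PQ replicate 3 was lowest for 6 members, PQ replicate 1 for 4 and PQ replicate 2 for 2. PQ+SS-31 replicate 2 was highest for 6, replicate 3 for 4 and replicate 1 for 2. Summed over the 12 genes, the level was 297, 320 and 281 CPM with PQ and 383, 423 and 418 CPM with PQ+SS-31, a mean of 299 ± 19.3 against 408 ± 21.6 CPM (SD, n = 3). KIF20A was called in 1 of 6 refits without 1 library, that without PQ replicate 3, and lost its call without each of the other 5 (edgeR adjusted p from 0.0109 to 0.229, log2 fold change from 0.76 to 0.88). Over all genes, 125 were called higher without PQ replicate 3 and 0 in each of the other 5 refits. KIF18B was called without PQ replicate 3 (log2 fold change 0.84, edgeR adjusted p = 0.0298). DESeq2 called 5 mitotic kinesins higher, KIF11, KIF14, KIF18B, KIF2C and KIF20A, where it called 0.925% of 12426 genes higher, and 0 kinesins lower, where it called 1.51% lower.

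The cargo transport kinesins were more abundant as a class and showed no called change. Their summed level was 1921, 1981 and 1589 CPM with PQ and 1655, 1913 and 1760.2 CPM with PQ+SS-31. The groups overlapped, with PQ replicate 3 lowest of all 6 libraries. It was the lowest library for 7 of the 15 members, and PQ replicate 2 the highest for 8. The ratio of the mitotic to the transport sum was 0.155, 0.161 and 0.177 in the PQ libraries and 0.231, 0.221 and 0.237 in the PQ+SS-31 libraries. These ratios did not overlap between the groups, and PQ replicate 3, low in both sums, was highest of its group in the ratio. The transport median of -0.04 was 0.04 when PQ replicate 2 was left out, 0.02 when PQ+SS-31 replicate 1 was, and -0.16 when PQ replicate 3 was, so its sign depended on single libraries.

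**Figure D3:**
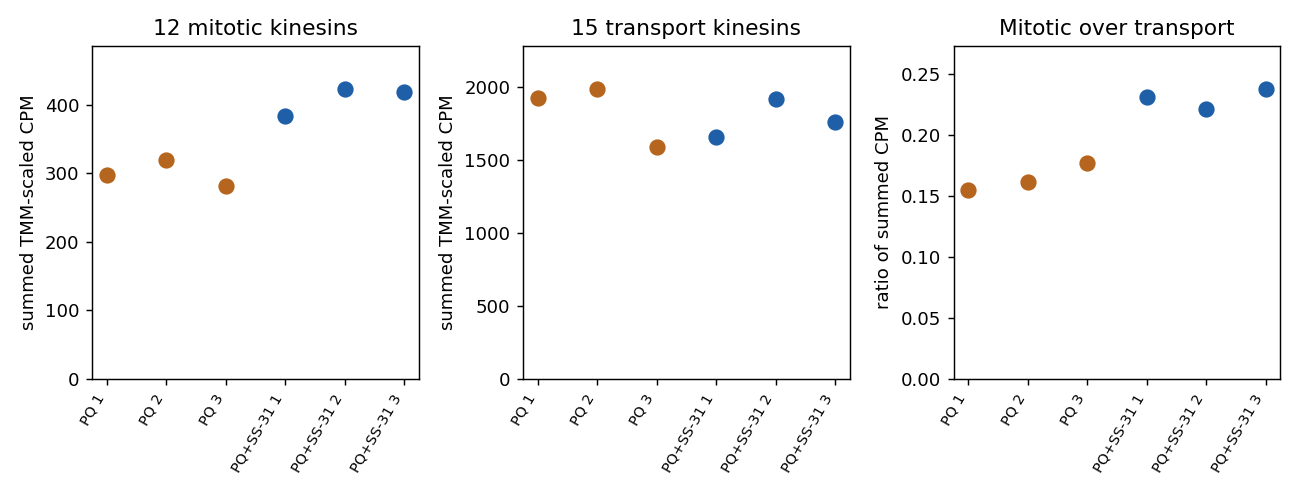
Summed TMM-scaled CPM of the 12 mitotic and 15 transport kinesins, and their ratio, in each of the 6 libraries, with PQ in brown and PQ+SS-31 in blue. Mitotic sums lie at 281 to 320 CPM with PQ and at 383 to 423 CPM with PQ+SS-31, while transport sums overlap.

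The heavy chains of conventional kinesin, which bind light chains and carry mitochondria, lysosomes and vesicles, include the most abundant member. KIF5B, the ubiquitous heavy chain (chromosome 10, 32009010 to 32056431), was at 423, 474 and 384 CPM with PQ and at 375, 438 and 392 CPM with PQ+SS-31. KIF5C and KIF5A, the neuronal heavy chains, were far lower. KIF5C was at 7.71, 7.84 and 6.98 CPM with PQ and at 6.02, 7.24 and 5.88 CPM with PQ+SS-31. For KIF5A the values were 4.51, 5.94 and 3.66 CPM with PQ and 4.51, 3.27 and 4.31 CPM with PQ+SS-31. Groups overlapped in all 3 heavy chains, and the log2 fold changes were -0.09 ± 0.11, -0.23 ± 0.16 and -0.22 ± 0.24 for KIF5B, KIF5C and KIF5A (SE, edgeR adjusted p from 0.646 to 0.849).

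Other transport motors overlapped between the groups except KIF17. KIF16B, a carrier of early endosomes, had the smallest p of the class, at 55.6, 63.5 and 45.9 CPM with PQ and 43.2, 47.0 and 47.7 CPM with PQ+SS-31 (log2 fold change -0.26 ± 0.12, edgeR adjusted p = 0.479). KIF3A, the shared subunit of heterotrimeric kinesin-2, which drives intraflagellar transport, was at 33.6, 34.1 and 34.7 CPM with PQ and 34.5, 38.6 and 35.2 CPM with PQ+SS-31. KIF17, the homodimeric motor of dendrites and cilia, was at 3.797, 3.86 and 3.02 CPM with PQ and 4.86, 3.92 and 4.08 CPM with PQ+SS-31. Its groups were apart by a small margin, in 1 of 15 transport kinesins, where 9.16% of all genes were apart in that direction, and it did not pass the test (log2 fold change 0.27 ± 0.20, edgeR adjusted p = 0.693). The remaining 9 transport members had log2 fold changes from -0.09 to 0.02.

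KIFC2, a minus-end motor described mainly in neurons and named here after its values were seen, was the least even transport member. Its level was 33.5, 30.7 and 80.4 CPM with PQ and 49.3, 38.6 and 50.2 CPM with PQ+SS-31. PQ replicate 3 was highest, followed by PQ+SS-31 replicates 3 and 1. The nuclear long non-coding RNA NEAT1 had the same order at the top, with 884 CPM in PQ replicate 3, 437 in PQ+SS-31 replicate 3 and 364 in PQ+SS-31 replicate 1, against 152 to 220 CPM in the others. The part of NEAT1 or of library quality in the KIFC2 values was not tested. The log2 fold change of KIFC2 was -0.07 ± 0.33 with all libraries and 0.51 without PQ replicate 3 (edgeR adjusted p = 0.971 and 0.0585). Exons of FOXH1, on the opposite strand, cover 17.8% of its exonic bases.

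In the class of cilium function and microtubule regulation, 0 of 10 tested members were called by edgeR, 0 by DESeq2 and 0 by limma-voom. KIF24, a centriolar kinesin that holds back cilium formation, was at 11.7, 11.9 and 11.4 CPM with PQ and at 11.5, 13.6 and 15.7 CPM with PQ+SS-31. KIF2A, a depolymerase of spindle poles and cilia, was at 75.8, 81.2 and 66.2 CPM with PQ and at 64.1, 72.7 and 72.5 CPM with PQ+SS-31. KIF21A, which limits microtubule growth at the cell cortex, was at 69.5, 76.6 and 56.6 CPM with PQ and at 58.2, 64.6 and 59.3 CPM with PQ+SS-31. All 3 overlapped between the groups, with log2 fold changes of 0.22 ± 0.14, -0.09 ± 0.10 and -0.16 ± 0.12 (SE). KIF2A belongs to the same family as the mitotic KIF2C, whose groups were apart. Counted as mitotic instead, KIF2A would have given that class a member with a negative value and overlapping groups.

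The lowest members of that class were the most variable. KIF26B, an atypical kinesin linked to adhesion and polarity, was at 2.43, 1.01 and 1.28 CPM with PQ and at 0.463, 1.19 and 0.524 CPM with PQ+SS-31 (log2 fold change -1.12 ± 0.48, edgeR adjusted p = 0.422). Without PQ replicate 1 its log2 fold change was -0.66, and over the 6 refits it ran from -1.66 to -0.66. KIF12 was at 0.475, 0.759 and 0.930 CPM with PQ and at 1.16, 1.19 and 0.815 CPM with PQ+SS-31 (0.54 ± 0.38, edgeR adjusted p = 0.666). KIF9, a kinesin of motile cilia, was at 2.31, 4.11 and 4.25 CPM with PQ and at 3.24, 5.17 and 4.66 CPM with PQ+SS-31 (0.29 ± 0.28, edgeR adjusted p = 0.787). Each of these 3 had 400 or fewer counts over all libraries, and their groups overlapped. The other 4, KIF7, KIF21B, KIF26A and KIF27, had log2 fold changes from -0.16 to 0.15.

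Levels can be compared between genes only per length, here as mean CPM per kilobase of the gene length in the deposited table. The order of genes depends on the length used. For KIFC3 the gene length is 9600 bases and the longest annotated transcript 3427, while KIF5B has 5877 for both. In the PQ libraries the highest were the transport motors KIF5B (72.7 CPM per kb), KIF1C (40.0), a carrier of dense-core vesicles and integrins, KIFC3 (32.5), a minus-end motor of adherens junctions, and KIF3B (27.0) and KIF3C (22.9), which both pair with KIF3A. Mitotic kinesins spanned 1.64 CPM per kb for KIF15 to 8.84 for KIF23 with PQ, and 1.98 to 10.7 with PQ+SS-31. Transport kinesins spanned a wider range, from 0.166 CPM per kb for KIF1A, a neuronal vesicle motor, up to KIF5B. The classes also differed in transcript make-up, with a median GC content of 44.4% and length of 3970 bases in the mitotic class and 51.4% and 6103 bases in the transport class, against 48.7% and 3416 bases over all tested genes. With offsets that remove trends with GC content and length in each library, the mitotic median was 0.47 and the transport median -0.05.

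**Figure D4:**
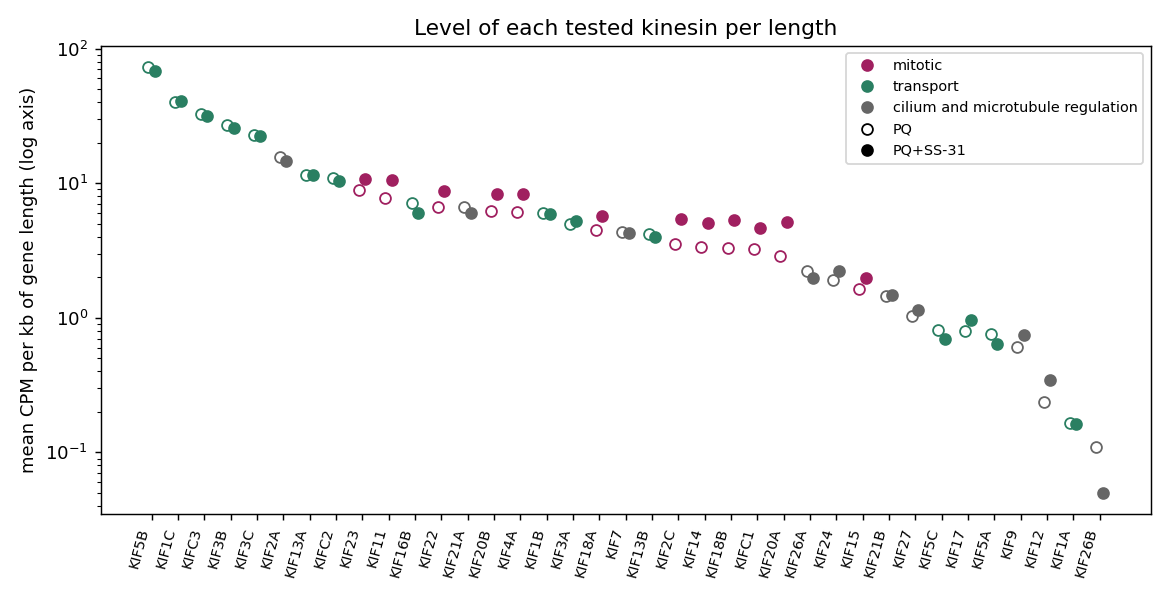
Mean TMM-scaled CPM per kilobase of gene length, on a log axis, for the 37 tested kinesins in PQ (open) and PQ+SS-31 (filled), ordered by the PQ level and coloured by class. The highest levels are those of transport kinesins, and the mitotic kinesins lie between 1.64 and 8.84 CPM per kb with PQ.

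Proteins that work with the mitotic kinesins were counted as a list of 22, of which 2 were called higher and 0 lower. All 22 had positive log2 fold changes, from 2e-04 for KNSTRN to 0.77 for PLK1, and the median was 0.38. Of all tested genes 0.129% were called higher, 0.463% lower, and 50.1% had positive values. This list and those below were chosen with earlier results of these data known, so their counts are description and not independent support. The list includes CENPE, a motor that the symbol rule leaves out of the kinesins counted here. Its members NUSAP1 and PRC1 averaged only 1.81 and 0.824 CPM with PQ. CDK1, whose kinase activity with cyclin B starts mitosis, and PLK1, the kinase that KIF20A brings to the midzone, were the called genes, with log2 fold changes of 0.59 ± 0.08 and 0.77 ± 0.11 (SE, edgeR adjusted p = 0.0252 and 0.0301). CDCA8 (borealin), a subunit of the passenger complex that KIF20A carries, was at 9.71 ± 0.715 and 14.4 ± 1.08 CPM without passing (edgeR adjusted p = 0.114). Both were called without PQ replicate 3 and in none of the 5 other refits, which called 0 genes higher. PLK1 also lost its call with library size as the only scaling.

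For the 4 lists that follow, the shares of all tested genes at an edgeR p before adjustment under 0.05 were 5.62% higher and 5.94% lower, and DESeq2 called 0.925% higher and 1.51% lower, while 50.1% of values were positive and the median was 0.00. The light chains and cargo adaptors of transport kinesins gave 0 called of 25 by edgeR and limma-voom and 1 lower by DESeq2, while p before adjustment was under 0.05 for 0 higher and 3 lower genes, and had 7 positive and 18 negative log2 fold changes and a median of -0.10. PLEKHM2 (SKIP), an adaptor that links lysosomes to kinesin-1, was at 133 ± 1.53 CPM with PQ and 102 ± 7.57 CPM with PQ+SS-31. Its groups did not overlap, with a log2 fold change of -0.39 ± 0.09 (SE) that did not pass (edgeR adjusted p = 0.110), although DESeq2 called PLEKHM2 lower (adjusted p = 0.0183). PTPN21, a phosphatase that binds KIF1C, was at 46.7 ± 4.43 and 38.2 ± 4.69 CPM. Dynein and dynactin genes, the minus-end transport machinery, gave 0 called of 23 tested by edgeR, DESeq2 and limma-voom, with 1 lower at an unadjusted p of 0.05, and had 9 positive and 14 negative values and a median of -0.04. Its smallest p values were those of NDEL1, ACTR1B and BICD1, with log2 fold changes of -0.24, 0.23 and -0.21.

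Tubulins, the track on which kinesins move, gave 0 called of 15 tested by edgeR and limma-voom and 1 higher by DESeq2, while p before adjustment was under 0.05 for 3 higher and 1 lower genes, and had 11 positive values and a median of 0.07. TUBA1B was at 151 ± 6.24 and 206 ± 6.26 CPM (log2 fold change 0.44 ± 0.08, edgeR adjusted p = 0.0606; DESeq2 adjusted p = 6.33e-04), TUBB4B at 156 ± 5.53 and 177 ± 5.28 CPM and TUBB2A at 12.4 ± 0.787 and 9.05 ± 2.08 CPM. Tubulin genes share long stretches of near-identical sequence, so reads may be split between them. The last list held MuvB subunits, their partners and cell cycle transcription factors, not all of which act at the promoter letters searched above. It gave 0 called of 17 by edgeR and limma-voom and 2 higher by DESeq2. The edgeR p before adjustment was under 0.05 for 3 higher and 0 lower genes. The list had 13 positive values and a median of 0.13. MYBL2 (B-Myb), which joins MuvB in late cell cycle transcription, was at 58.5 ± 2.75 and 84.2 ± 8.24 CPM (edgeR adjusted p = 0.0590; DESeq2 adjusted p = 0.00258). FOXM1, the forkhead factor of the same genes, was at 63.2 ± 1.02 and 86.2 ± 14.7 CPM, and E2F1, an activator of S phase genes, at 34.2 ± 1.85 and 45.7 ± 1.71 CPM. Groups were apart with SS-31 higher in 5 of the 17, MYBL2, FOXM1 and E2F1 among them, against 9.16% of all tested genes.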

How the data were processed

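RNA sequencing of A549 cells gave 3 PQ and 3 PQ+SS-31 libraries. The authors deposited raw counts per gene in 1 table, with 0 columns of sample values left out here; columns were assigned by the group letter and replicate number of the titles. Per the submitters' processing notes, the tools were HISAT2 2.0.5, CASAVA, DESeq2 1.20.0 and featureCounts 1.5.0-p3, and the build named there is the mouse build mm10. All 58735 gene IDs are human and match GENCODE 29 (GRCh38) in position and strand. Strand use in counting is not stated, and exons of other genes cover more than 10% of the exonic bases of KIF7, KIF9, KIF22, KIF27, KIFC1 and KIFC2.

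Counts were filtered with filterByExpr (15550 genes kept), scaled with TMM and tested in R 4.3.3 with edgeR 4.0.16. Adjusted p-values follow Benjamini and Hochberg over all tested genes. CPM values are TMM-scaled; SE derives from the test statistic. Alternatives used DESeq2 1.42.0, limma 3.58.1 and the settings of the closing section. The edgeR step was tested on simulated data. Pairs of libraries within a group differed by more than sampling noise (chi-square per degree of freedom 7.32 to 35.6), so all 6 were counted.

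Members, classes and partner lists were chosen with earlier results of these data known. Named are every called and every mitotic tested kinesin, the 6 smallest p in each other class and the 3 smallest p in each partner list, of which 1 gene is not reported here; KIFC2 was added after its values were seen. Protein features were not used here.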

Additional observations from a re-analysis of the deposited data

How the results depend on the processing

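All 12 tested mitotic kinesins kept a positive log2 fold change in every alternative run, and their median ranged from 0.40 to 0.55 on leaving out a library and from 0.45 to 0.48 otherwise. The number of kinesins called higher was 1 with RLE, upper-quartile and no scaling factors, with a filter of 1 CPM in 3 libraries, with protein-coding genes alone and with limma-voom. It was 3 with GC and length offsets, 5 with DESeq2, 6 with no filter and 6 with GC and length offsets plus the replicate block; the cause was not tested. Leaving out 1 library gave 0 to 2, with fewer samples in each refit; over all genes these refits called 0 higher and 0 to 10 lower, except 125 and 203 without PQ replicate 3. KIF20A was called in all alternatives that kept the 6 libraries. In every alternative 0 kinesins were called lower. Transport members above 0 numbered 3 to 9 when a library was left out, with the median from -0.16 to 0.04. The replicate number as a block gave 5 kinesins higher; the same-numbered libraries correlated at -0.09, 0.39 and 0.19 in their deviations from the group means, so the numbers were not taken to pair the samples. KIFC2 had the opposite sign with limma-voom (0.064), with the replicate block (0.056) and without PQ replicate 3 or PQ+SS-31 replicate 2 (refits ranged from -0.31 to 0.51), and was not called in any of them. Over all genes, calls numbered 20 higher and 72 lower with the main settings. They numbered 58 and 142 with GC and length offsets, 66 and 134 with the block, and 107 and 188 with offsets plus the block. DESeq2 gave 115 and 188, and no filter 156 and 237. The alternatives with 1 kinesin called gave 13 to 36 higher and 56 to 79 lower. Kinesins below the filter, with 25 counts or fewer in all, could not be compared at this depth.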
